A study of Mus musculus with 6 samples.

Results

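The mRNA levels of 3 receptors for fibroblast growth factors (FGFs), Fgfr1, Fgfr2 and Fgfr3, and of 7 genes commonly used as a readout of FGF signalling, Spry1, Spry2, Spry4, Dusp6, Etv1, Etv4 and Etv5, were examined in lenses of mouse embryos with and without Gata3. The 10 genes were chosen by name from the 13024 genes of the count table, and all 10 were found. RNA-Seq was performed on whole lenses dissected at E14.5, when primary fibre cells fill the lens and new fibres form at its equator. There were 3 control and 3 Gata3 CKO pools, each made of 10 lenses from 5 embryos.

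The CKO embryos were Gata3 f/f; Pax6-Cre/+ and are given as Gata3 -/- in the labels. In them Cre, driven by Pax6 regulatory sequences active in the lens and corneal precursors, removes exon 4 of Gata3. The control embryos are labelled wild type, while the study's text gives them as littermates without Cre that carry floxed Gata3, with Gata3 f/f in one place and Gata3 f/wt in another. Both groups were on a mixed C57BL/6 and FVB background. Only the CKO embryos carried Cre, so the loss of Gata3 and the presence of Cre cannot be told apart.

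The 6 libraries held 15157230 to 18811104 counts. Gata3, the targeted gene, had 202, 386 and 156 counts in control replicates 1, 2 and 3. Gata3 had more counts in the replicates labelled CKO, at 910, 1064 and 894. Its log2 fold change of CKO against control was 1.72 (SE 0.40), with an adjusted p of 0.6505 in edgeR and 0.001628 in DESeq2. One count per gene was deposited, which takes in the exons outside the deleted one and does not show whether exon 4 was present, and reads on that exon were not analysed here. Crystallins, the main proteins of fibre cells, had fitted values below 0 in CKO lenses for 15 of 16 genes, 10 of them at an unadjusted p under 0.05 in edgeR (11 without control replicate 2) and 4 of them called by DESeq2. Lens fibre markers stood apart in control replicate 2. There the 10 tested markers of 11 summed to 106300 CPM (TMM-normalised counts, scaled to library size) against 36410 to 52620 in the other control libraries and 37300 to 50070 in the CKO libraries, and each of the 10 was highest there. All 10 also had fitted values below 0 in CKO lenses, 4 with groups that did not overlap, 5 at an unadjusted p under 0.05 in edgeR with or without that library, and 3 called by DESeq2, with a median log2 fold change of -0.95 that was -0.37 without it. All 11 retina markers, among which are transcription factors of retinal progenitors, were lowest in the same library, with a sum of 843.0 CPM against 1396 to 2117 CPM elsewhere. Control replicate 2 also had the highest sums of lens epithelium markers (1204 CPM against 891.6 to 1010 elsewhere) and macrophage markers (121.7 against 51.61 to 89.4). The same held for blood markers (1384 against 306.2 to 578.0 CPM), and 6 of 8 vessel markers were highest there. Mesenchyme markers summed to 2228 CPM in control replicate 1 and 4045 CPM in CKO replicate 2 against 237.9 to 512.4 CPM in the other 4 libraries. The filter on low counts left no tested marker of these lists at 0 in every library. Values with and without control replicate 2 are therefore given for each of the 10 genes. A whole-lens library does not tell fewer cells of a type from less RNA per cell.

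FGFs bind receptor tyrosine kinases together with heparan sulphate, and the activated receptors signal through adaptors, Ras and the kinase ERK. ERK activity relieves the repression exerted by Capicua and turns on a set of early genes, which include the Pea3-type Ets factors Etv1, Etv4 and Etv5, the ERK phosphatase Dusp6 and the Sprouty inhibitors. In the lens, FGF from the retina and the surrounding eye drives the elongation and differentiation of fibre cells, and loss of the receptors Fgfr1, Fgfr2 and Fgfr3 together blocks it.

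The levels of the 10 genes in the libraries labelled CKO lay within the range of the control libraries or overlapped it. None of the 10 passed edgeR's quasi-likelihood test after Benjamini-Hochberg adjustment, with an adjusted p of 0.9998 for each, and none reached an unadjusted p of 0.05. Over the 12879 genes tested, 0 passed after adjustment (0%), 457 had an unadjusted p under 0.05 (3.55%) and 1077 had groups that did not overlap in CPM (8.36%, with 4.69% lower and 3.67% higher in CKO lenses). No member was among these. DESeq2, run on the same counts, called 85 of 12866 genes after adjustment (0.661%), 507 at an unadjusted p under 0.05 (3.94%), and none of the 10 after adjustment. Pools were the replicates, so these p-values reflect the spread between 3 pools of each group.

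**Figure D1:**
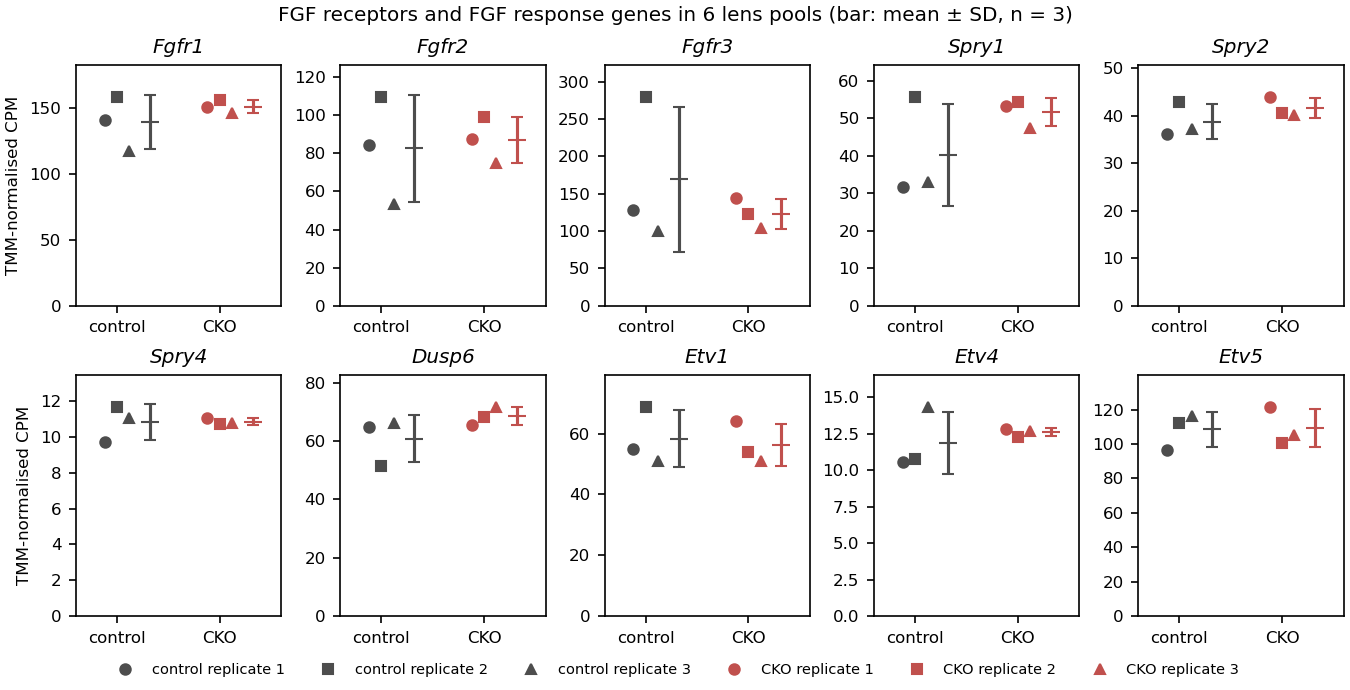
Level of each of the 10 genes in each library, in TMM-normalised CPM on an axis that starts at 0, with control libraries in grey, CKO libraries in red, 1 symbol for each replicate number, and a bar for the mean ± SD of 3 libraries. The 2 groups overlap in every panel, and the control library marked by a square is the highest for 6 genes.

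Of the receptors, Fgfr1 was the most even. It was measured at 141.2, 158.9 and 117.9 CPM in control replicates 1, 2 and 3, and at 151.0, 156.2 and 146.8 CPM in CKO replicates 1, 2 and 3. All CKO libraries lay below control replicate 2 and above the other 2 control libraries. The means were 139.3 ± 20.59 and 151.3 ± 4.734 CPM (SD, n = 3), and the log2 fold change of CKO against control was 0.12 (SE 0.11, 95% interval -0.15 to 0.39), with an unadjusted p of 0.3247 in edgeR. Without control replicate 2 the log2 fold change was 0.24, with an unadjusted p of 0.03741 and an adjusted p of 0.715 in edgeR, and without control replicate 3 it was 0.01, with an unadjusted p of 0.887. Fgfr1 is transcribed from chromosome 8, plus strand (25518759 to 25575718 in GRCm38.p6, the assembly of mm10), with 5215 exonic bases in the basic set of GENCODE. Over all annotated transcripts, it shares 164 exonic bases with Gm16159 on the opposite strand.

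Fgfr2, whose splice forms differ in the FGFs they bind and were not told apart here, was measured at 84.59, 109.7 and 53.29 CPM in the control libraries. The CKO libraries gave 87.27, 99.07 and 74.83 CPM, all inside the control range, which control replicates 2 and 3 bounded. The log2 fold change was 0.08 (SE 0.26, 95% interval -0.54 to 0.69, unadjusted p = 0.7695 in edgeR), an interval from 0.689-fold to 1.618-fold. The fitted value was 0.35 without control replicate 2 and -0.16 without control replicate 3, so its sign rested on single libraries. Fgfr2 lies on chromosome 7, minus strand (130162451 to 130266808), with 5115 exonic bases in the basic set. Over all annotated transcripts, 314 of its exonic bases also belong to exons of Ctbp2 on the same strand.

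Fgfr3, which in the lens is a receptor of cells entering fibre differentiation, showed the widest spread. It was measured at 127.9, 279.8 and 99.65 CPM in the control libraries and at 143.8, 122.8 and 103.7 CPM in the CKO libraries. Control replicate 2 stood far above the other 5 libraries, which together spanned 99.65 to 143.8 CPM. The means were 169.1 ± 96.9 CPM in control and 123.4 ± 20.08 CPM in CKO lenses (SD, n = 3), with a log2 fold change of -0.45 (SE 0.38, 95% interval -1.37 to 0.46) and an unadjusted p of 0.274 in edgeR. Without control replicate 2 the log2 fold change was 0.13, with an unadjusted p of 0.4967. The lower mean of Fgfr3 in CKO lenses therefore rested on 1 control library. That library had the highest sums of fibre, lens epithelium, macrophage and blood markers and the lowest retina marker sum. The part of these markers in the lower mean was not tested. Fgfr3 lies on chromosome 5, plus strand (33721724 to 33737068), with 4399 exonic bases in the basic set. Over all annotated transcripts, 998 exonic bases are shared with G630022F23Rik on the opposite strand, which matters only if strand was not used in the counting.

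Per kilobase of exon (RPKM), a scale on which genes can be set beside each other, Fgfr3 and Fgfr1 had higher mean levels than Fgfr2 in both groups. Control means were 38.4 ± 22.0 RPKM for Fgfr3, 26.7 ± 3.95 RPKM for Fgfr1 and 16.1 ± 5.53 RPKM for Fgfr2 (SD, n = 3), and Fgfr3 and Fgfr1 differed by less than the spread of Fgfr3. In CKO lenses Fgfr1 was at 29.0 ± 0.908 RPKM and Fgfr3 at 28.1 ± 4.57 RPKM, closer than their spread, and Fgfr2 was at 17.0 ± 2.37 RPKM. As a share of the summed RPKM of the 3 receptors, Fgfr3 made up 40.0%, 55.06% and 40.69% in the control libraries and 41.53%, 36.14% and 35.52% in the CKO libraries. Fgfr1 made up 37.25%, 26.37% and 40.6% in the control and 36.79%, 38.78% and 42.43% in the CKO libraries. The groups overlapped in both shares, and control replicate 2 was the single library in which Fgfr3 exceeded the other 2 receptors together. The sum of the 3 receptors was 72.7, 115.5 and 55.67 RPKM in control and 78.71, 77.25 and 66.34 RPKM in CKO lenses.

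**Figure D2:**
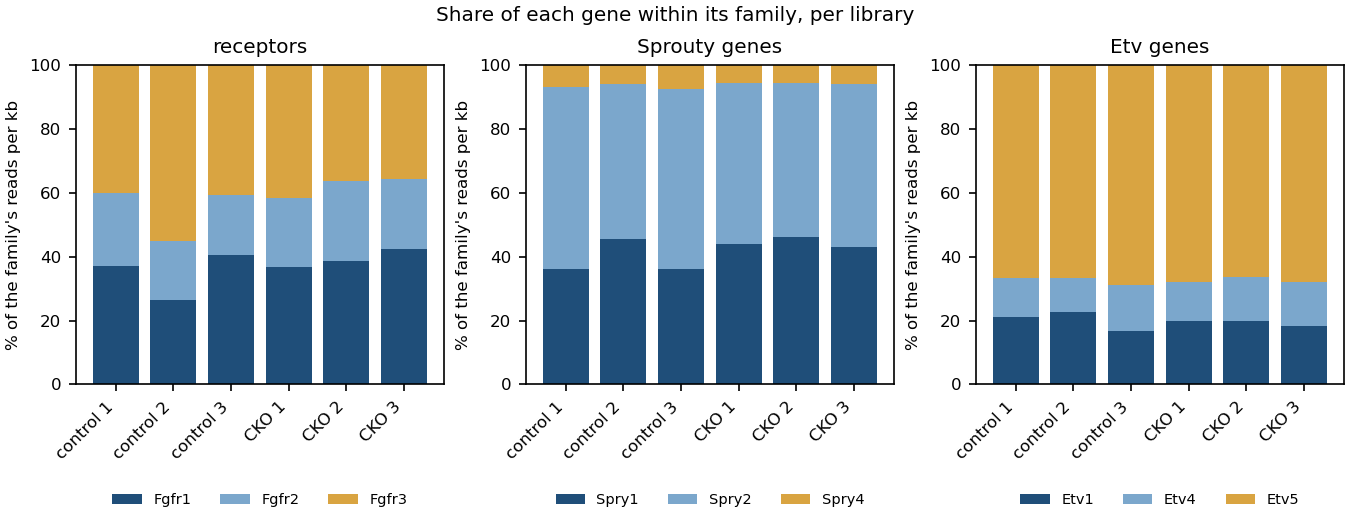
Share of each gene in the summed reads per kilobase (RPKM) of its family, in % of the family, for 3 receptors, 3 Sprouty genes and 3 Etv genes, with 1 bar for each library. Fgfr3 takes 55.06% of the receptor sum in control replicate 2 and 35.52% to 41.53% in the other libraries, and Etv5 takes 66.44% to 68.84% of the Etv sum in every bar.

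The response genes are known targets of Ets factors and of Capicua, a repressor that leaves DNA when ERK is active, and 7 of the 10 genes had entries in a RefSeq table of start sites (10 windows of 250 bases before the start, GRCm38.p6). The octamers TGAATGAA and TGAATGGA preferred by Capicua, the Ets site CCGGAAG and the GATA sites AGATAA along with AGATAG, as well as TGATAA along with TGATAG, were searched on both strands and matched in 0 of the 10 windows, against 2.07%, 6.91% and 26.5% of 32851 windows of all genes, and 1.24%, 13% and 16.4% of the 12935 windows of genes in the count table. After these windows had been seen, the octamer was widened to the 8 forms TGAATGAA, TGAATGAG, TGAATGGA, TGAATGGG, TCAATGAA, TCAATGAG, TCAATGGA and TCAATGGG, which include the octamers searched above. At least 1 of the 8 was present in 3 member windows, those of Etv5, Dusp6 and Spry2, and in 5.86% of all windows (3.88% of those of genes in the table). Because the octamer was widened with the member windows in view, these figures are not a test of the members. These 3 windows are shown from RefSeq, 5′ to 3′ towards the start, with the matched octamers in capitals, for Etv5 at chr16:22438369-22438618 (minus strand), Dusp6 at chr10:99262981-99263230 (plus strand) and Spry2 at chr14:105896820-105897069 (minus strand).
Etv5: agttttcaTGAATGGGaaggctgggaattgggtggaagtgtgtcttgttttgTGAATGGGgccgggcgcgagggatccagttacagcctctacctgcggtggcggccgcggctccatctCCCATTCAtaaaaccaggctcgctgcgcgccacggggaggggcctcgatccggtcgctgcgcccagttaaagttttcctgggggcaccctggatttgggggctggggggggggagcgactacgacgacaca
Dusp6: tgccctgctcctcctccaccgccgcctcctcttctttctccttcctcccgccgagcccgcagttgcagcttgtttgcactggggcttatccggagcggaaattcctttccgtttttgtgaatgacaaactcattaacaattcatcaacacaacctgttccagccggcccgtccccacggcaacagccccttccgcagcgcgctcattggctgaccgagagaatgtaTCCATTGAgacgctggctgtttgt
Spry2: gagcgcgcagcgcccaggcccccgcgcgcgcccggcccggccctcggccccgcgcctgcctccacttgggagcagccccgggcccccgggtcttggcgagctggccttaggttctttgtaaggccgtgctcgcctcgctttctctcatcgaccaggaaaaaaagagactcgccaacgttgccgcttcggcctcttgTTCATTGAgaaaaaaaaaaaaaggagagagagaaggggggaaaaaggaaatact
The Etv5 window, which precedes the more downstream of its 2 RefSeq starts, held 3 matches, beginning 242, 198 and 131 bases before the start. Dusp6 had 1 match, 24 bases before its start, and Spry2 had 1 match, 54 bases before its start. The shorter Ets core CGGAA, also searched only after the windows had been seen, was present in 1 of the 10 member windows. That was the Dusp6 window, with 3 matches at 155, 144 and 61 bases before the start. The core was found in 25.2% of all windows and 40.4% of those of genes in the table. None of the 3 windows overlapped an annotated exon. A match describes the letters of the window and is not a measured binding site.

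Among the Sprouty genes, which encode inhibitors of Ras-ERK signalling induced by FGF, Spry1 had the widest difference between groups. It was measured at 31.68, 55.74 and 33.07 CPM in the control libraries and at 53.3, 54.22 and 47.3 CPM in the CKO libraries. Control replicate 2 was the highest of all 6 libraries and the other 2 control libraries were the lowest. The means were 40.16 ± 13.51 and 51.6 ± 3.756 CPM (SD, n = 3), with a log2 fold change of 0.36 (SE 0.22, 95% interval -0.18 to 0.90) and an unadjusted p of 0.1528 in edgeR. Without control replicate 2 the log2 fold change was 0.68 (unadjusted p = 0.000163), and the adjusted p was 0.0879, the lowest that any of the 10 genes reached in any edgeR, limma or DESeq2 fit. It was 0.23 without control replicate 1 and 0.24 without control replicate 3, with unadjusted p of 0.36 and 0.352. Spry1 lies on chromosome 3, plus strand (37639947 to 37644599), with 2906 exonic bases in the basic set. Over all annotated transcripts, 710 exonic bases are shared with Gm42922 on the opposite strand.

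Spry2, which carries an octamer in the window shown above, was measured at 36.12, 42.92 and 37.26 CPM in the control and at 44.02, 40.64 and 40.22 CPM in the CKO libraries. Control replicate 2 lay among the CKO libraries, and the other 2 control libraries lay below them. A log2 fold change of 0.10 was fitted (SE 0.10, 95% interval -0.13 to 0.33, unadjusted p = 0.324 in edgeR), against 0.19 without control replicate 2 (unadjusted p = 0.05193).

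Spry4 had the same mean in both groups to within its spread, with 9.758, 11.7 and 11.06 CPM in the control and 11.09, 10.73 and 10.77 CPM in the CKO libraries. The 3 CKO values lay inside the control range. Its fitted log2 fold change was 0.00 (SE 0.14, 95% interval -0.32 to 0.33, unadjusted p = 0.981 in edgeR), and it was 0.07 without control replicate 2. It had 154 to 211 counts in each library, and Etv4 had 153 to 257, the fewest of the 10 genes.

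Per kilobase, Spry2 and Spry1 were close and Spry4 was far lower. Control means were 18.6 ± 1.74 RPKM for Spry2, 13.8 ± 4.65 RPKM for Spry1 and 2.28 ± 0.208 RPKM for Spry4, and CKO means were 19.9 ± 0.999, 17.8 ± 1.29 and 2.28 ± 0.0410 RPKM (SD, n = 3). Spry1 supplied 39.18 ± 5.43% of the Sprouty sum in control and 44.38 ± 1.629% in CKO lenses, and control replicate 2, at 45.45%, lay inside the CKO range of 43.04% to 46.2%.

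Dusp6, the cytoplasmic phosphatase that switches ERK off and is itself induced by ERK, departed from the others in its order of libraries. It was measured at 64.88, 51.44 and 66.13 CPM in the control and at 65.61, 68.25 and 71.76 CPM in the CKO libraries. It was the single member lowest in control replicate 2, and the other 2 control libraries lay next to CKO replicate 1. The log2 fold change was 0.17 (SE 0.11, 95% interval -0.10 to 0.44, unadjusted p = 0.1714 in edgeR), and 0.08 without control replicate 2 (unadjusted p = 0.325). On the length scale it was at 21.7 ± 2.91 RPKM in control and 24.5 ± 1.10 RPKM in CKO lenses (SD, n = 3).

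The 3 Etv genes, which encode Ets factors of the Pea3 group that carry the transcriptional response to FGF, differed little between groups. Etv5 was measured at 96.63, 112.4 and 116.3 CPM in the control and at 121.6, 100.7 and 105.4 CPM in the CKO libraries, with the highest value in CKO replicate 1 and the lowest in control replicate 1. A log2 fold change of 0.01 was fitted (SE 0.11, 95% interval -0.24 to 0.26, unadjusted p = 0.927 in edgeR), and the interval ran from 0.846-fold to 1.199-fold. The fitted value was 0.05 without control replicate 2.

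Etv1 was measured at 54.87, 68.78 and 51.05 CPM in the control and at 64.06, 54.01 and 50.94 CPM in the CKO libraries. Control replicate 2 was the highest, and the lowest libraries of both groups were at almost the same level. For Etv1 the log2 fold change was -0.05 (SE 0.14, 95% interval -0.39 to 0.29, unadjusted p = 0.7474 in edgeR) and 0.10 without control replicate 2.

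Etv4 was measured at 10.58, 10.78 and 14.36 CPM in the control and at 12.84, 12.31 and 12.7 CPM in the CKO libraries. The CKO values lay between the lower control libraries and control replicate 3. The log2 fold change was 0.08 (SE 0.16, 95% interval -0.30 to 0.46, unadjusted p = 0.6263 in edgeR) and 0.03 without control replicate 2.

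Etv5 lies on chromosome 16, minus strand (22381313 to 22439570), Etv1 on chromosome 12, plus strand (38780082 to 38870483), and Etv4 on chromosome 11, minus strand (101769747 to 101785310). Per kilobase, Etv5 led in every library and supplied 67.32 ± 1.312% of the Etv sum in control and 67.43 ± 0.8586% in CKO lenses (SD, n = 3). Etv1 supplied 20.27 ± 3.03% and 19.43 ± 0.937%, and Etv4 supplied 12.41 ± 1.782% and 13.14 ± 0.947%. The Etv5 share was steady at 66.44% to 68.84%, while those of Etv1 (16.9% to 22.76%) and Etv4 (10.71% to 14.26%) varied more. The level of Etv5 was 26.9 ± 2.58 RPKM in control and 27.1 ± 2.72 RPKM in CKO lenses, above 80.2% of the tested genes that have an exon length. Etv1 was at 8.08 ± 1.29 and 7.82 ± 0.952 RPKM, and Etv4 at 4.96 ± 0.885 and 5.26 ± 0.114 RPKM. Over the 7 response genes the summed level was 89.46, 102.5 and 97.13 RPKM in control and 109.6, 102.4 and 102.0 RPKM in CKO lenses, with control replicate 2 inside the range of the CKO libraries.

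**Figure D3:**
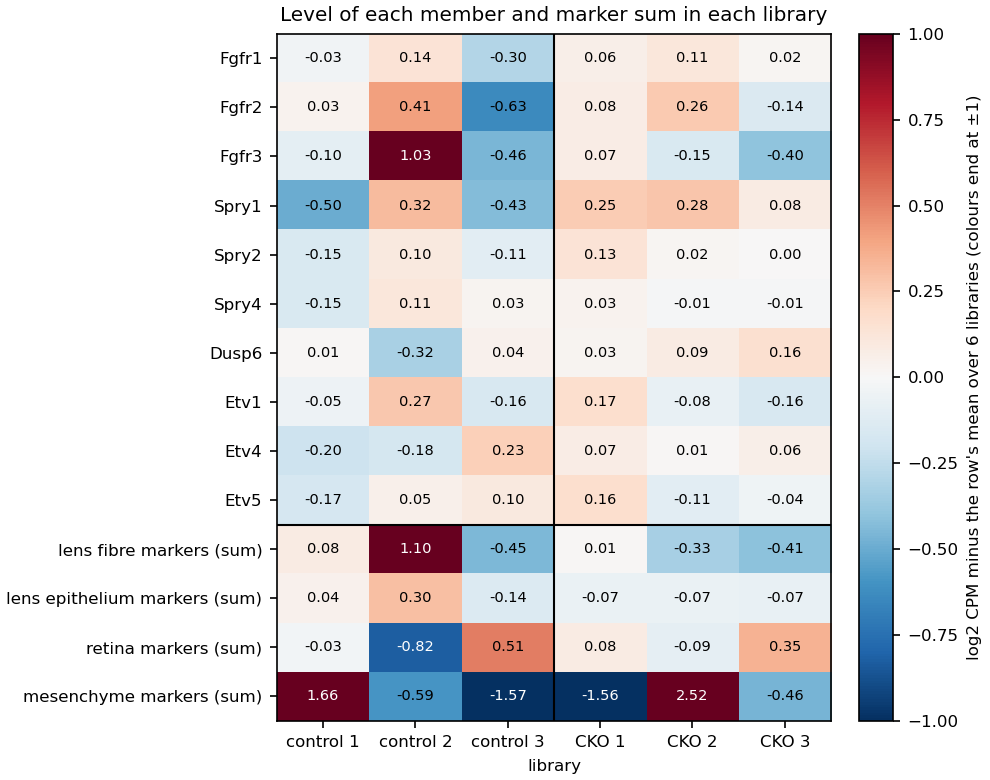
Level of each of the 10 genes and of 4 marker sums in each library, as log2 CPM minus the mean of its row over 6 libraries (red above the row's mean, blue below, colours ending at ±1). Fgfr3 (1.03) and the lens fibre and lens epithelium sums peak in control replicate 2, and Dusp6 is lowest there (-0.32). Mesenchyme markers peak in control replicate 1 and CKO replicate 2.

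Across the 10 genes, 8 fitted values were above 0 and 2 below, with a median log2 fold change of 0.08 against 0.00 over all genes tested, and 0.11 against 0.00 without control replicate 2. Their precision was that of the table, with a median SE of 0.14 against 0.13 over all genes. The 95% interval lay within a 2-fold change in either direction for 9 of the 10 genes, all but Fgfr3, and for 86.17% of all genes. It lay within 1.5-fold for 7 of the 10, all but Fgfr2, Fgfr3 and Spry1, and for 67.85% of all genes. Control libraries differed from each other more than CKO libraries did in 9 of the 10 genes, Etv5 being the exception, and in 70.74% of all genes tested. Control replicate 2 was the highest library for 6 of the 10 genes, and control replicate 1 was the lowest for 5.

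**Figure D4:**
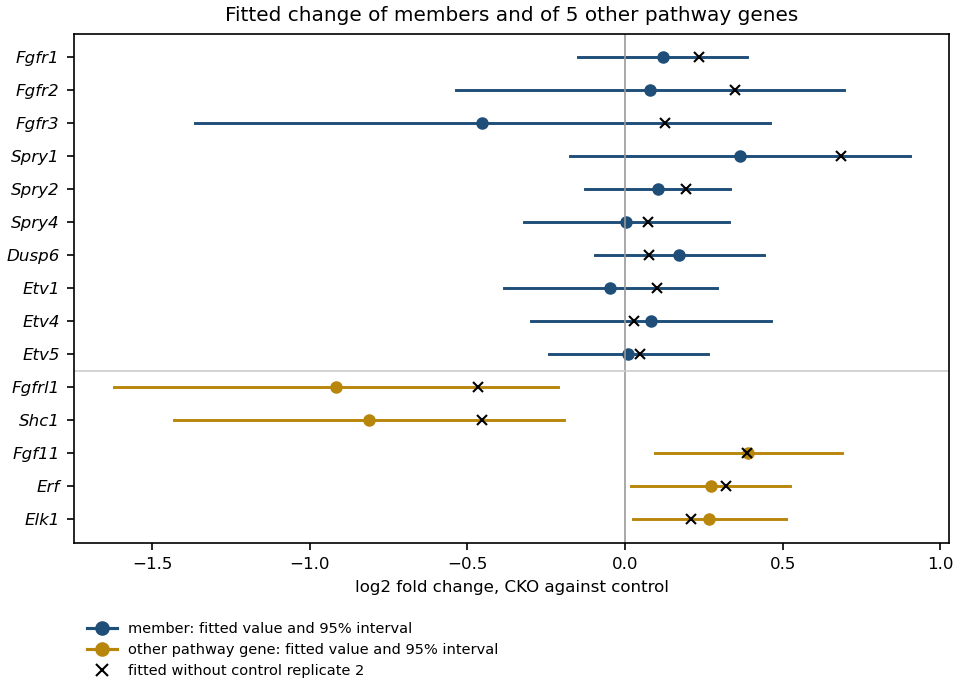
Fitted log2 fold change of CKO against control lenses, with its 95% interval, for the 10 genes (blue) and for the 5 other pathway genes with an unadjusted p under 0.05 (ochre), with a cross for the value without control replicate 2. All 10 blue intervals include 0, and the cross of Fgfr3 lies at 0.13 against -0.45 with all libraries.

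The wider FGF pathway was followed through 8 lists of 122 genes, of which 100 were tested. None passed after adjustment in edgeR or DESeq2. An unadjusted p under 0.05 was found for 5 genes, of which 2 were lower in CKO lenses (2.24% of all genes tested) and 3 higher (1.3%). That count depended on single libraries, as did the count over all 12879 genes, which was 457 with every library. The pathway count was 11 without control replicate 2 (811 over all genes) and 13 without control replicate 3 (1243 over all genes). It was 3 without control replicate 1, CKO replicate 2 or CKO replicate 3 (319, 387 and 268 over all genes). The median log2 fold change of the 100 genes was 0.01, with 43 genes below 0 and 57 above. The groups did not overlap in 5 of the 100 with lower and 5 with higher levels in CKO lenses (4.69% and 3.67% of all genes tested). Beside the genes with an unadjusted p under 0.05 in edgeR, those described are the ones with the highest and the lowest log2 fold change and the highest mean CPM of each list.

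Fgfrl1, a receptor of the family that lacks the kinase domain, had the lowest log2 fold change of the 100 genes. It was measured at 70.96, 144.3 and 68.26 CPM in the control and at 51.35, 48.16 and 50.58 CPM in the CKO libraries, so the groups did not overlap. The log2 fold change was -0.92 (SE 0.29, 95% interval -1.62 to -0.21), with an unadjusted p of 0.01839 and an adjusted p of 0.9998 in edgeR, and an adjusted p of 0.1644 in DESeq2. Without control replicate 2 it was -0.47 (unadjusted p = 0.000353, adjusted p = 0.115 in edgeR). The other 4 tested receptors and co-receptors had unadjusted p above 0.05, and of these Flrt2 was at -0.08 and Fgfr4, at 3.021 CPM in control and 3.859 CPM in CKO lenses, was at 0.37 with a 95% interval of -1.09 to 1.83.

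Of 22 FGF genes 9 were tested, and the other 13 were not in the table, which leaves out genes whose mean FPKM did not exceed 1 in at least 1 group. The list takes in intracellular FGFs, so its counts and medians do not describe receptor ligands alone. All 9 fitted values were above 0, with a median of 0.19 that was 0.03 without control replicate 2. Fgf15, an FGF of the embryonic retina, had the highest mean CPM of the list, with 864.6, 479.4 and 1119 CPM in the control and 865.8, 790.9 and 987.5 CPM in the CKO libraries, lowest where the retina markers were lowest. Its log2 fold change was 0.10 (unadjusted p = 0.7379 in edgeR) and -0.16 without control replicate 2. Fgf11, an intracellular FGF that does not act through the receptors, was measured at 13.37, 12.9 and 13.35 CPM in the control and at 15.3, 18.87 and 17.74 CPM in the CKO libraries, which did not overlap (log2 fold change 0.39, SE 0.12, unadjusted p = 0.01692 and adjusted p = 0.9998 in edgeR). Fgf8 was at 0.7954 CPM in control and 1.090 CPM in CKO lenses, and Fgf14, another intracellular FGF, had the lowest fitted value, at 0.06.

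Heparan sulphate, the co-factor of receptor binding, was covered by 14 tested genes of synthesis and 10 core proteins, none with an unadjusted p under 0.05. The median log2 fold changes were 0.07 and 0.10. Among the enzymes, Hs3st1 was at 0.38, the endosulphatase Sulf1 at -0.40, and Sulf2, which had the most reads, at 0.06. Among core proteins the syndecan Sdc1 was at 0.23, Sdc2 at -0.18 and perlecan (Hspg2), which had the most reads, at -0.07.

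All 25 adaptors and members of the Ras-ERK relay were tested, with a median log2 fold change of -0.02. Shc1, an adaptor that couples receptors to Ras, was measured at 174.1, 280.5 and 135.2 CPM in the control and at 110.4, 121.5 and 104.0 CPM in the CKO libraries, with no overlap. Its log2 fold change was -0.81 (SE 0.26, 95% interval -1.43 to -0.19), with an unadjusted p of 0.01765 and an adjusted p of 0.9998 in edgeR, and it was -0.46 without control replicate 2 (unadjusted p = 0.01108). Both Shc1 and Fgfrl1 were highest in control replicate 2, where fibre, lens epithelium, macrophage and blood marker sums were highest. Both had lower values in CKO lenses with and without that library. So did the medians of fibre markers, macrophage markers (-0.45, and -0.21 without it), vessel markers (-0.50 and -0.27) and blood markers (-0.87 and -0.16). The lens epithelium median was -0.31, and 0.09 without it. Retina, mesenchyme, pigment cell and surface ectoderm medians were above 0 with all libraries. The part of any of these markers in either difference was not tested. The highest value of the list was that of the ERK kinase gene Map2k1, at 0.20, and Nras, with the most reads, was at -0.02.

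Of the 12 other feedback inhibitors tested, none had an unadjusted p under 0.05, and their median log2 fold change was -0.01, from Dusp5, a nuclear ERK phosphatase, at -0.31 to Spred3, at 0.23. Nf1, a Ras inactivator and the gene with the most reads, was at -0.01. Of the 11 other ERK response genes tested, none had an unadjusted p under 0.05 in edgeR. Their median was 0.09, and -0.08 without control replicate 2. The groups did not overlap in 3 of them with lower levels in CKO lenses (4.69% of all genes tested). In 1 the groups did not overlap with higher levels (3.67%). Egr1, an immediate early gene, was at 0.32. Ccnd1 (cyclin D1), with the most reads, was at 0.14, and at -0.08 without control replicate 2. Its libraries stood in the order of the retina marker sum, from 2071 CPM in control replicate 3 to 960.0 CPM in control replicate 2. The part of retinal tissue in its level was not tested. Ier3, at 1.914 CPM in control and 1.297 CPM in CKO lenses, was at -0.56, with groups that did not overlap. Among Capicua and the other Ets factors, with 14 genes tested and a median of 0.00, Erf, an Ets repressor that ERK inactivates, was at 0.27 (SE 0.11, unadjusted p = 0.03828 and adjusted p = 0.9998 in edgeR) and the activator Elk1 at 0.27 (SE 0.10, unadjusted p = 0.0352 and adjusted p = 0.9998). Erf was measured at 40.04, 42.35 and 38.71 CPM in the control and at 43.89, 55.13 and 47.04 CPM in the CKO libraries, and Elk1 at 36.37, 33.12 and 40.94 against 45.39, 45.62 and 41.94 CPM, and neither overlapped. The Capicua gene Cic, with the most reads, was at 0.07 and that of its partner Atxn1 at -0.70 (95% interval -1.43 to 0.02, unadjusted p = 0.05568 in edgeR).

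The 7 response genes were also set beside all other tested genes by their profile over the 6 libraries. Their mean centred log2 CPM was -0.17, 0.05 and -0.04 in the control and 0.12, 0.03 and 0.01 in the CKO libraries. By root mean square distance on the log2 scale over the 6 libraries, the 5 nearest of 12869 other tested genes were Timm29 (0.02326), Dennd6a (0.02510), Iffo1 (0.02824), Tchp (0.03120) and Daglb (0.03170), where the median over those genes was 0.1759. The response genes make up this mean, which draws them towards it, so a small distance of theirs is not a result. Even so, Spry1 (0.2628) and Dusp6 (0.1881) lay farther from it than that median, and the remaining response genes lay at 0.03454 to 0.1491. The mean profile was thus not that of each response gene.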

How the data were processed

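RNA-Seq was performed by the authors on 6 pools of E14.5 mouse lenses. Reads were trimmed with Trim Galore and aligned to mm10 with TopHat2 2.0.13, and fragments per RefSeq gene were counted with HTSeq 0.6.1. The authors deposited these raw counts for genes whose mean FPKM (Cuffdiff 2.2.1) exceeded 1 in at least 1 group. Libraries were prepared strand-specifically. The strand option of HTSeq is not given in the sources used here.

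TMM factors were computed, and CKO was compared with control by the quasi-likelihood test of edgeR 4.0.16, fitted robustly in R 4.3.3. Genes entered with 10 or more counts in 3 or more libraries, with Benjamini-Hochberg adjustment at 0.05. Intervals are 95% intervals of the fitted log2 fold change. Centred profiles used log2 CPM with a prior count of 1. RPKM was computed from CPM and merged exon lengths of the GENCODE M21 basic set, matched for 12765 genes and not for 259. Exonic bases shared with other genes were counted over all transcripts of GENCODE M21, while the reads had been counted on RefSeq genes. Positions and start windows came from RefSeq on GRCm38.p6. The fit was also run on simulated counts, with changes larger than those fitted for the 10 genes and no library set apart. That run does not measure the power for changes of their size. Python 3.11.15, pandas 2.3.3 and matplotlib 3.10.9 served for tables and plots.

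The 15 alternatives were other normalisation factors, library sizes without crystallins, other filters, DESeq2 1.42.0, limma 3.58.1 voom, a fit without robust estimation, the replicate number as a block, and each library left out. CKO replicates carry the numbers of their titles, 1 to 3, while their descriptions number the same libraries 2 to 4. Named genes are the 10 members, the highest, lowest and most abundant gene of each pathway list with those of unadjusted p under 0.05, the 5 nearest profiles, and Gata3. The members, lists and rules were chosen with earlier results of these data known. Libraries held 15157230 to 18811104 counts, and the fitted SE covers counting error and the spread between pools together.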

Additional observations from a re-analysis of the deposited data

How the results depend on the processing

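Of the 10 FGF receptor and response genes, 0 were called in edgeR, limma or DESeq2 under any of the 15 alternatives. Over all genes tested, DESeq2 called 85 and fits without 1 library called 0 to 8, the highest without control replicate 2, and the other alternatives called 0. Over 150 values of the 10 genes, the sign turned 9 times, each time when a library was left out, and in 5 genes. Leaving out each library in turn gave log2 fold changes from 0.0124 to 0.235 for Fgfr1, 0.234 to 0.684 for Spry1, -0.158 to 0.348 for Fgfr2, -0.724 to 0.128 for Fgfr3, -0.0502 to 0.0727 for Spry4, -0.149 to 0.0994 for Etv1 and -0.0734 to 0.0654 for Etv5. The values that turned were those of Fgfr2 without control replicate 3 or CKO replicate 2, Fgfr3 without control replicate 2, Spry4 and Etv5 without replicate 1 of either group, and Etv1 without control replicate 2 or CKO replicate 3. The cause was not tested. Spry2 (0.0612 to 0.193), Dusp6 (0.0767 to 0.238) and Etv4 (0.0204 to 0.24) kept their sign. An unadjusted p under 0.05 was reached by Fgfr1 and Spry1 without control replicate 2. Over all genes tested, 457 had an unadjusted p under 0.05, against 811 without control replicate 2, 1243 without control replicate 3 and 268 without CKO replicate 3.

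Deviations of same-numbered pools from their group means correlated at -0.4868, 0.08991 and 0.4417, so the replicate numbers did not mark a pairing common to all pools. Control replicate 1 correlated best with CKO replicate 2 (0.5584), and these were the pools with the highest mesenchyme marker sums. Whether any pools shared a litter, dissection or batch was not tested. The fit with the replicate number as a block called 0 genes, as without it, and had 516 genes at an unadjusted p under 0.05. These are the numbers of the sample titles. By the descriptions, which number the CKO pools 2 to 4, the same-numbered pools correlated at 0.08836 and -0.4797.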
